A study of Mus musculus with 8 samples.

Results

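The nucleotide synthesis genes of S phase described here are Rrm1, Rrm2, Tyms, Tk1 and Dut. They were taken as every probe set of the deposited table whose only gene symbol in the platform annotation is one of these 5, which gave 11 of 22690 probe sets: 2 for Rrm1, 3 for Rrm2, 3 for Tyms, 1 for Tk1 and 2 for Dut. One further probe set lists Tyms together with another gene symbol and was left out by this rule. The study measured RNA from whole skin of newborn mice of the inbred strain FVB on 8 microarrays, each hybridised with a pool of RNA from 3 animals. The groups were pRb-/-;p53+/+ skin, called pRb-null here, pRb+/+;p53-/- skin, called p53-null, pRb-/-;p53-/- skin, called double-null, and control skin, with 2 arrays each. The series title places the inactivation of Rb1 and Trp53 in stratified epithelia and calls it somatic, so the other cells of whole skin would keep both genes. The sources used here give neither the driver of recombination nor the exact genotype of the controls, and neither is whether paired arrays of 1 genotype came from distinct pools, so the p-values rest only on how far such array pairs lie apart, and that may be a technical spread.

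DNA replication needs a supply of the 4 deoxynucleotides, and these genes encode the enzymes that cells build up for it at the start of S phase. Ribonucleotide reductase, made of the large subunit encoded by Rrm1 and the small, radical-bearing subunit encoded by Rrm2, turns ribonucleotides into deoxyribonucleotides. Thymidylate synthase (Tyms) makes thymidylate from deoxyuridylate, thymidine kinase (Tk1) makes it from salvaged thymidine, and the dUTPase encoded by Dut removes dUTP, which keeps uracil out of DNA and feeds thymidylate synthase with its substrate. E2F transcription factors drive these genes, pRb holds E2F back, and p53 slows entry into S phase through the inhibitor p21. In newborn skin the dividing cells lie mostly in the basal layer of the epidermis and in the matrix of hair follicles.

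Deposited values had been scaled within each probe set to mean 0 and SD 1 and are called scores, so a score says how an array stands relative to the other arrays for that probe set. A difference of 1 is 1 SD of the probe set's own scores. Neither an expression level nor a fold change can be given, levels of different genes cannot be set against each other, and whether a probe set was above background is unknown. The number of arrays limits the precision. In bulk tissue, fewer cells of a type and less RNA per cell cannot be told apart. Across all probe sets, the r of the 2 arrays of a genotype lay between 0.118 and 0.337, and the highest r between arrays of different genotypes was 0.093. Rb1 scored −0.71 and 0.44 in pRb-null, 0.50 and 0.22 in p53-null, −0.55 and −1.90 in double-null, and 1.20 and 0.80 in control skin. Its difference from control was −1.14 ± 0.65 (SE) in pRb-null and −2.23 ± 0.65 in double-null, with adjusted p of 0.63 and 0.20 from the limma fit described below. Trp53 was not analysed here. The sources used here do not place the Rb1 probe set inside or outside the deletion, so it does not check the labels.

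The promoters of the ribonucleotide reductase pair are shown because all 5 probe sets of Rrm1 and Rrm2 scored higher in both pRb-null arrays than in both control arrays. The same held for Tk1 and Dut 1419270_a_at, and for 22.7% of all probe sets. Each promoter shown is the 250 bases before the start of the gene in RefSeq, build GRCm38.p6, plus strand, 5′ to 3′, at chr7:102441445-102441694 for Rrm1 and chr12:24708004-24708253 for Rrm2. Capitals mark matches on either strand to the CCAAT box (CCAAT) and to the core of an E2F site (TTNNCGC, each N being C or G), and no match of one overlapped a match of the other.
Rrm1: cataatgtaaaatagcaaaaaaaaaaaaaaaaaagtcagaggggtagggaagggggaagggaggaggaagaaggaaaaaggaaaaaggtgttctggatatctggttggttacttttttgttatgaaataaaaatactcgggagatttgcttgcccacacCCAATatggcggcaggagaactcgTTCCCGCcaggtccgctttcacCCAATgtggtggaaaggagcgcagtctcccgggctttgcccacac
Rrm2: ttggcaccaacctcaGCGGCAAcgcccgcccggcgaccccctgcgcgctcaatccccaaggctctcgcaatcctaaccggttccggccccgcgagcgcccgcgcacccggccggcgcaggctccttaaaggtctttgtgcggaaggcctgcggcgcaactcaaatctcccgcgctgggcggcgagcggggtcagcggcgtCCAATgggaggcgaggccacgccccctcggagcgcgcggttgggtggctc
The Rrm1 window held CCAAT at −91 to −87 and at −45 to −41 from the start, with TTCCCGC between them at −67 to −61. The Rrm2 window held CCAAT at −50 to −46 and TTGCCGC, on the minus strand, at −235 to −229. Neither motif occurred in the windows of Tyms, Tk1 and Dut. Whether the matches bear on the scores was not tested. Of the 32851 promoter windows in the table, 33.8% held the CCAAT box, 7.89% an E2F core and 2.79% both. A match describes letters only, and the absence of a match says nothing about whether a factor binds.

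Rrm1, the large subunit, had its highest mean score in pRb-null skin by both of its probe sets. Probe set 1448127_at scored 1.04 and 0.51 in pRb-null, 0.65 and 0.64 in p53-null, 0.35 and −0.13 in double-null, and −1.34 and −1.70 in control skin. All 6 mutant arrays stood above both control arrays, and the pRb-null and p53-null arrays, which overlapped each other, also stood above the double-null arrays. The other probe set, 1415878_at, scored 1.36 and 1.04 in pRb-null, 0.49 and −0.26 in p53-null, −0.61 and −1.80 in double-null, and −0.36 and 0.15 in control skin. In it both pRb-null arrays lay above all others, and both double-null arrays lay below all others. The 2 probe sets are annotated with the same source sequence record, and their r over the 8 arrays was 0.34.

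Rrm2, the small subunit, had its lowest mean score in control skin by all 3 probe sets. Probe set 1416120_at scored 0.19 and 0.31 in pRb-null, −0.44 and −0.26 in p53-null, 1.89 and 0.38 in double-null, and −1.65 and −0.41 in control skin, so its double-null and pRb-null groups did not overlap each other or the remaining groups. Probe set 1448226_at scored −0.38 and 1.40 in pRb-null, −0.11 and 0.04 in p53-null, 1.47 and −0.21 in double-null, and −0.75 and −1.45 in control skin. The mutant groups overlapped one another in it, and both control arrays lay below all 6 mutant arrays. Probe set 1434437_x_at, of a type that may also hybridise to similar transcripts, scored 0.10 and 1.17 in pRb-null, −0.58 and 0.08 in p53-null, 1.08 and 0.15 in double-null, and 0.01 and −2.02 in control skin. The control pair in it spanned most of the range, and its pRb-null and double-null arrays lay above both. The r between the 3 probe sets was 0.50, 0.70 and 0.88.

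Tk1, the salvage kinase, was high in both single losses and low in the double loss. Its only probe set, 1416258_at, scored 1.56 and 0.16 in pRb-null, 0.89 and 0.70 in p53-null, −0.90 and −1.29 in double-null, and −0.86 and −0.25 in control skin. The pRb-null and p53-null groups overlapped each other and lay above control, and the double-null arrays lay just below both control arrays.

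Tyms showed no pattern shared by all 3 of its probe sets. Probe set 1438690_at scored 1.44 and 0.50 in pRb-null, −1.32 and −0.82 in p53-null, −0.55 and −0.26 in double-null, and −0.33 and 1.34 in control skin, with p53-null the lowest group. Probe set 1427811_at scored 0.84 and 0.19 in pRb-null, −1.13 and 0.41 in p53-null, −1.70 and −0.33 in double-null, and 0.47 and 1.26 in control skin. Neighbouring groups overlapped in it throughout. Probe set 1427810_at scored 0.39 and −0.86 in pRb-null, 1.44 and −1.18 in p53-null, 0.98 and −0.27 in double-null, and 0.60 and −1.11 in control skin, and no genotypes separated. The r of 1427810_at was −0.42 with 1438690_at and −0.66 with 1427811_at, whereas 1438690_at and 1427811_at had an r of 0.72.

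Dut, the dUTPase, was read by 2 probe sets of the same source record that ran against each other, with an r of −0.54. Probe set 1419270_a_at scored −0.30 and −0.16 in pRb-null, 1.90 and 0.81 in p53-null, 0.33 and −1.06 in double-null, and −1.11 and −0.41 in control skin. The p53-null arrays were the highest in it. In 1419269_at the scores were 1.12 and −0.08 in pRb-null, −0.66 and −0.91 in p53-null, −1.22 and 1.14 in double-null, and −0.56 and 1.17 in control skin, so the p53-null mean was the lowest and the double-null and control pairs each spanned most of the range.

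**Figure D1:**
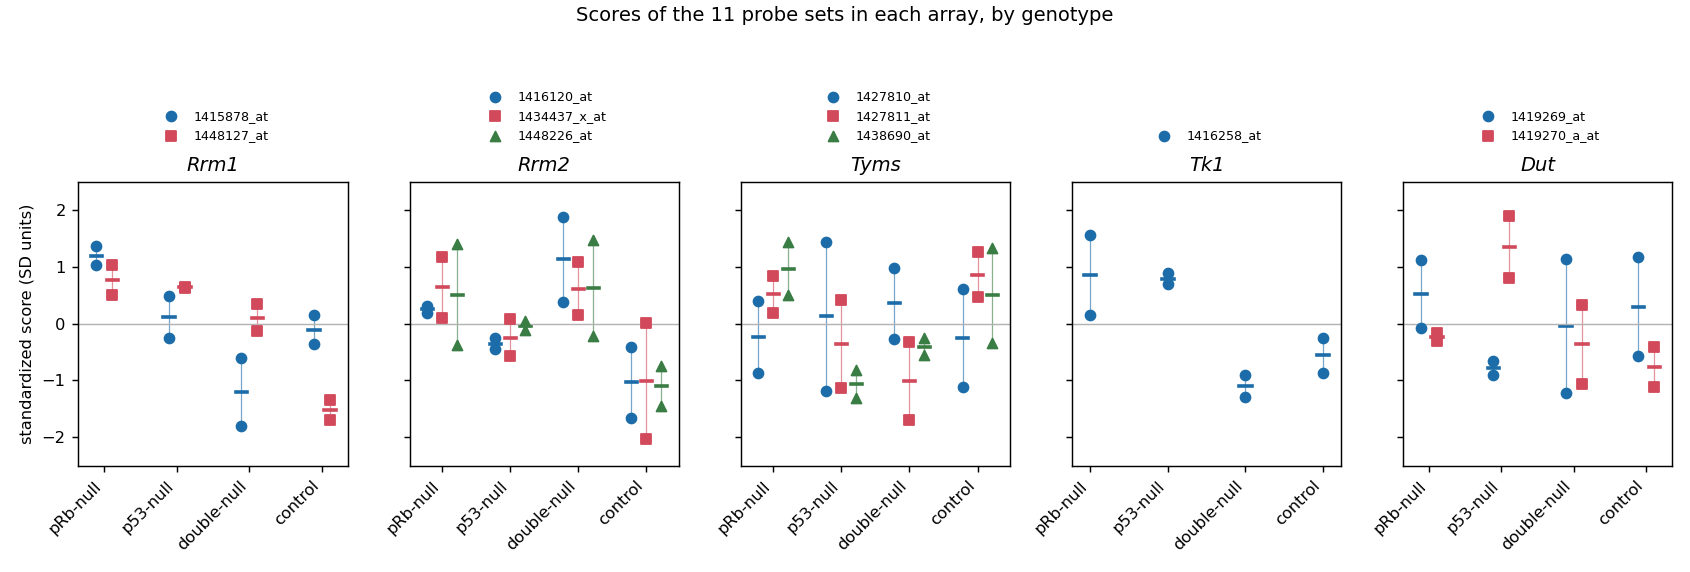
Standardized score (vertical axis, SD units) of each of the 11 probe sets in the 8 arrays, by gene and genotype. Each symbol is 1 array, colours and shapes are probe sets, the thin line joins the 2 arrays of a genotype and the bar is their mean. The 5 probe sets of Rrm1 and Rrm2 lie higher in both pRb-null than in both control arrays, as do 22.7% of all probe sets. Tk1 is high in both single losses and low in double-null. No pattern is shared by all 3 probe sets of Tyms or by the 2 of Dut.

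Over all 8 pairs of probe sets of the same gene among the 5 genes, the median r over the 8 arrays was 0.42, and 3 pairs were below 0. Over the 12855 such pairs of the whole table the median was 0.22, and 34.6% were below 0. These correlations are descriptions over 8 points that share the arrays and the standardization. Averaged per gene, Rrm1 and Tk1 had the highest r of the 10 pairs of genes, 0.86, followed by Tk1 and Dut with 0.63, while Rrm2 had an r of −0.46 with Tyms and −0.11 with Tk1.

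**Figure D2:**
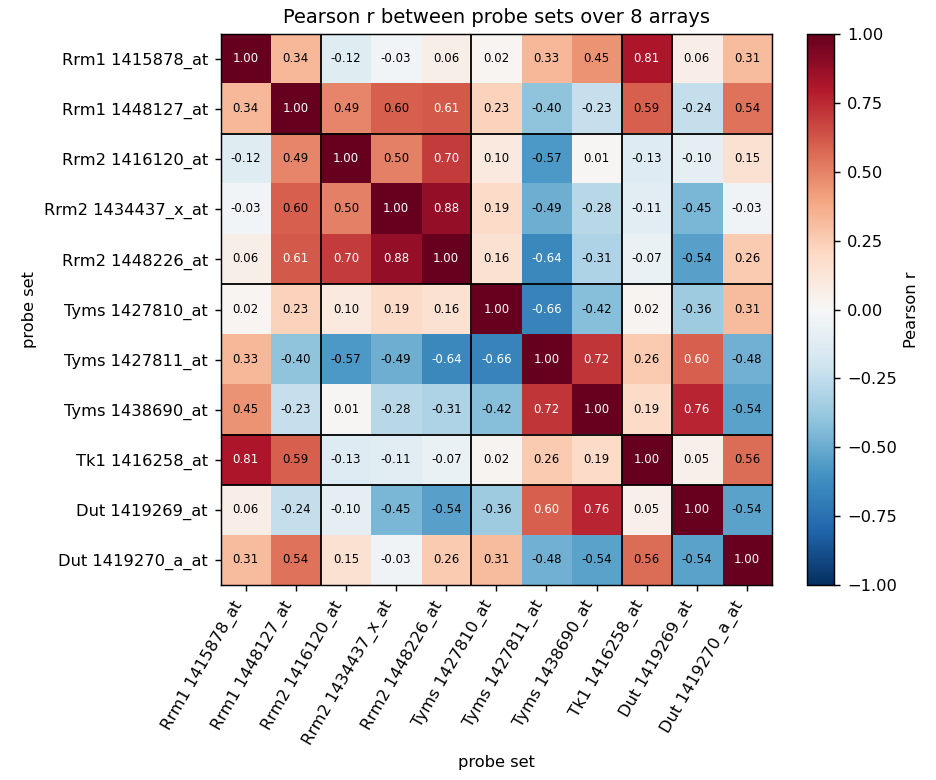
Pearson r over the 8 arrays between each pair of the 11 probe sets, both axes listing the probe sets by gene, with black lines between genes and colour and printed value giving r. The Rrm2 block is positive throughout (0.50 to 0.88), Rrm1 1415878_at is close to Tk1 (0.81), and the Tyms and Dut blocks hold negative values.

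The comparison of pRb-null with control skin asked what loss of pRb alone does. Of the 11 probe sets, 10 had a positive difference and 7 had groups that did not overlap, with the pRb-null arrays higher: both of Rrm1, the 3 of Rrm2, Tk1 and Dut 1419270_a_at. Over all probe sets, 52.3% had a positive difference and 22.7% had non-overlapping groups with pRb-null higher. The median difference was 1.28 for the 11 probe sets and 0.07 for all probe sets. None of the 11 passed at an adjusted p under 0.05 in limma's test without variance moderation, adjusted over all 22690 probe sets, where 0% were called, and by the moderated statistic 0 of 11 passed as well. At an unadjusted p under 0.05, 1 was higher and 0 lower, where the shares of all probe sets were 6.44% and 4.21%. That probe set was Rrm1 1448127_at, with a difference of 2.30 ± 0.29 (SE) and an adjusted p of 0.19. Rrm1 1415878_at differed by 1.30 ± 0.54 (adjusted p = 0.52) and Tk1 by 1.41 ± 0.56 (adjusted p = 0.50). The Rrm2 probe sets differed by 1.28 ± 0.70, 1.64 ± 0.91 and 1.62 ± 0.90, with adjusted p from 0.61 to 0.62. Single arrays moved these values: Rrm2 1416120_at differed by 0.66 without control replicate 1, 1434437_x_at by 0.629 without control replicate 2 and 2.66 without control replicate 1, and 1448226_at by 0.725 without pRb-null replicate 2 and 2.505 without pRb-null replicate 1. Tk1 differed by 0.713 without pRb-null replicate 1. The Tyms probe sets ran from −0.35 to 0.46, with standard errors between 0.71 and 1.27. The Dut probe sets differed by 0.53 ± 0.67 and 0.22 ± 1.12. The median of the 11 was 0.71 without pRb-null replicate 1, 0.935 without pRb-null replicate 2 and 0.88 without control replicate 1.

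In p53-null skin against control the differences went in both directions, also between probe sets of the same gene in Tyms and Dut. Positive differences were seen in 8 probe sets, non-overlapping groups in 4 with p53-null higher and in 3 with p53-null lower. Over all probe sets these shares were 45.7%, 23.8% and 28.9%. The 4 were Rrm1 1448127_at, Rrm2 1448226_at, Tk1 and Dut 1419270_a_at, and the 3 were Tyms 1438690_at, Tyms 1427811_at and Dut 1419269_at. Again 0 of 11 passed, where 0.119% of all probe sets were called, and at an unadjusted p under 0.05, 2 were higher and 0 lower, where the shares of all were 7.38% and 7.23%. The 2 were Rrm1 1448127_at, which differed by 2.16 ± 0.29 (adjusted p = 0.11), and Dut 1419270_a_at, which differed by 2.11 ± 0.67 (adjusted p = 0.31). Tk1 differed by 1.35 ± 0.56 (adjusted p = 0.39), Tyms 1438690_at by −1.57 ± 0.71 (adjusted p = 0.41) and Rrm1 1415878_at by 0.22 ± 0.54 (adjusted p = 0.89). Leaving out control replicate 1 gave −2.41 for Tyms 1438690_at, and leaving out control replicate 2 gave −0.734. The median over the 11 probe sets was 0.68, against −0.15 over all probe sets, and 1.05 without control replicate 1.

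In double-null skin against control, the Rrm2 probe sets had the highest differences together with Rrm1 1448127_at, and the difference of Tk1 was below 0. Of the 11 probe sets 6 had a positive difference, 4 had non-overlapping groups with double-null higher and 3 with double-null lower. The shares of all probe sets were 49.9%, 25.1% and 26.1%. The 4 were Rrm1 1448127_at and all 3 of Rrm2, and the 3 were Rrm1 1415878_at, Tyms 1427811_at and Tk1. No probe set of the 11 passed, where 0.846% of all were called, and at an unadjusted p under 0.05, 2 were higher and 0 lower, where the shares of all were 8.77% and 9.91%. Rrm2 1416120_at differed by 2.16 ± 0.70 (adjusted p = 0.23) and Rrm1 1448127_at by 1.63 ± 0.29 (adjusted p = 0.11). The remaining Rrm2 probe sets differed by 1.73 ± 0.90 and 1.62 ± 0.91 (adjusted p = 0.39 and 0.42), Tyms 1427811_at by −1.88 ± 0.81 (adjusted p = 0.33) and Tk1 by −0.53 ± 0.56 (adjusted p = 0.66). Without double-null replicate 1, Rrm2 1416120_at differed by 1.41, Rrm2 1448226_at by 0.889 and Tyms 1427811_at by −1.19. Leaving out control replicate 1 gave 2.64 for Rrm2 1434437_x_at, and leaving out control replicate 2 gave 0.606. Tk1 differed by −0.84, −0.229 and −0.342 without control replicate 1, control replicate 2 and double-null replicate 2. The median over the 11 was 0.40, against −0.01 over all probe sets. It was −0.01 without double-null replicate 1, 1.09 without double-null replicate 2 and 0.05 without control replicate 1, so it rests on single arrays. These comparisons share the 2 control arrays, so the values of the same probe set in them are not independent.

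**Figure D3:**
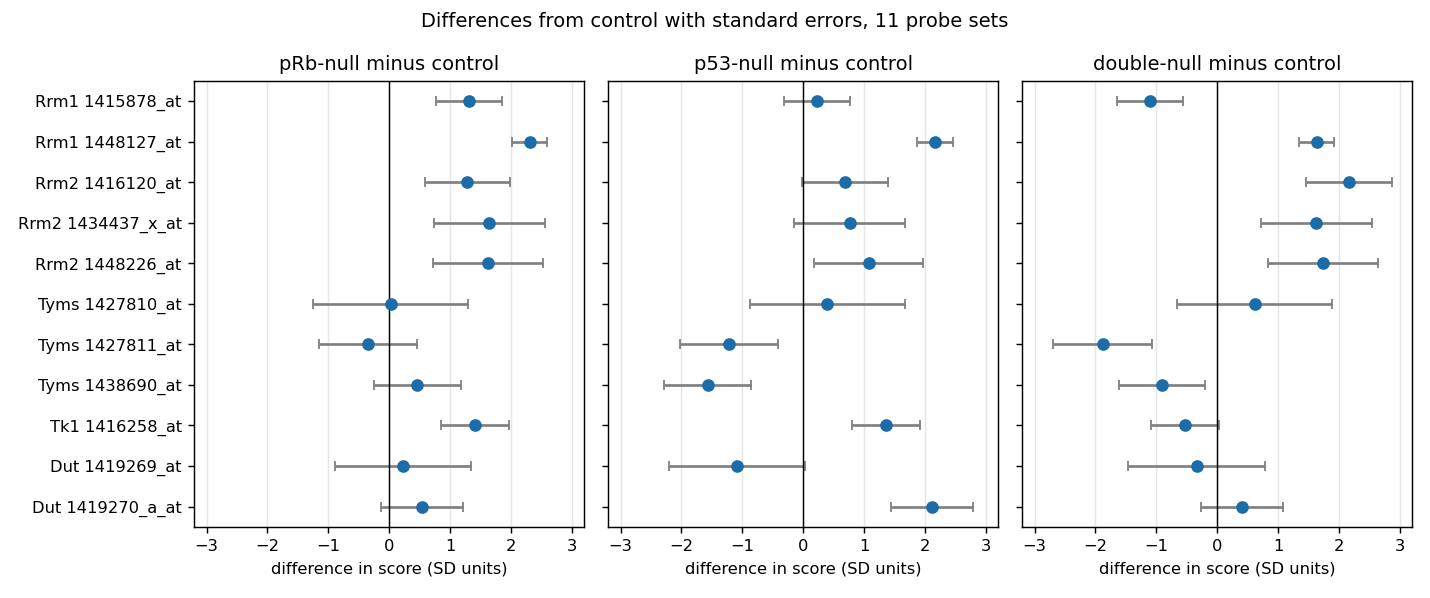
Difference in score from control (horizontal axis, SD units) of each of the 11 probe sets, in pRb-null, p53-null and double-null skin from left to right. Points are differences and bars are standard errors from the limma fit with 4 residual degrees of freedom. In pRb-null skin 10 of 11 points lie right of 0, in p53-null skin 8 and in double-null skin 6, and none passed the test. Of all probe sets, 52.3%, 45.7% and 49.9% had a positive difference.

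Control skin also scored low in many of the 64 probe sets that the array carries for quality control, which include spike-in sequences and housekeeping genes. In 20 of these, all 6 mutant arrays lay above both control arrays, against 7.01% of all probe sets and 2 of the 11 described here, Rrm1 1448127_at and Rrm2 1448226_at. The median difference of the 64 from control was 0.87 in pRb-null, 0.87 in p53-null and 0.71 in double-null skin. The part of this in the differences from control of the 11 probe sets, and of the gene lists described below, was not tested.

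Adding p53 loss to pRb loss was tested by setting double-null against pRb-null skin, a comparison that uses no control array. Negative differences were seen in 8 of 11 probe sets and positive ones in 3, where 46.5% of all probe sets had positive ones. Groups did not overlap in 1 with double-null higher and in 5 with double-null lower, where the shares of all probe sets were 22.1% and 28.1%. None passed, where 0.405% of all were called, and at an unadjusted p under 0.05, 0 were higher and 2 lower, where the shares of all were 7.71% and 10.9%. Rrm1 1415878_at differed by −2.40 ± 0.54 (adjusted p = 0.16) and Tk1 by −1.95 ± 0.56 (adjusted p = 0.21), which was −1.25 without pRb-null replicate 1. Rrm1 1448127_at differed by −0.67 ± 0.29 (adjusted p = 0.32), and the Rrm2 probe sets lay between −0.02 and 0.88. Against p53-null skin, 6 of 11 differences of double-null were positive, where 51.0% of all probe sets had positive ones. Groups did not overlap in 3 with double-null higher and in 4 with double-null lower, where the shares of all probe sets were 24.3% and 25.2%. Here 0 passed, where 0.0353% of all were called, and at an unadjusted p under 0.05, 0 were higher and 1 lower, where the shares of all were 5.99% and 5.91%. The 1 was Tk1, which differed by −1.89 ± 0.56 (adjusted p = 0.36). Rrm2 1416120_at differed by 1.48 ± 0.70 (adjusted p = 0.50) and Dut 1419270_a_at by −1.72 ± 0.67 (adjusted p = 0.44).

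Whether the effect of losing pRb differed with p53 status was tested by the interaction of the 2 losses. Tk1 and Rrm1 had the most negative interactions: −3.30 ± 0.79 for Tk1 (adjusted p = 0.35), −2.83 ± 0.40 for Rrm1 1448127_at (adjusted p = 0.26) and −2.62 ± 0.77 for Rrm1 1415878_at (adjusted p = 0.40). In these the double-null scores lay below the sum of the single differences from control. None of the 11 passed, where 0% of all probe sets were called, and at an unadjusted p under 0.05, 0 were higher and these 3 lower, where the shares of all were 4.46% and 6.01%. The Rrm2 probe sets had interactions of 0.20 ± 0.98, −0.78 ± 1.28 and −0.95 ± 1.28. The 64 quality-control probe sets had a median interaction of −0.84, with 12 of 64 lower at an unadjusted p under 0.05. Averaged over p53 status, with 4 arrays against 4, loss of pRb went with a difference of 1.38 ± 0.49 in Rrm2 1416120_at (adjusted p = 0.38) and 0.88 ± 0.20 in Rrm1 1448127_at (adjusted p = 0.26). At an unadjusted p under 0.05 these 2 of 11 were higher and 0 lower, where the shares of all were 6.92% and 5.94%, and 0 were called, against 0.00441% of all. Averaged over pRb status, loss of p53 went with differences of 0.75 ± 0.20 in Rrm1 1448127_at (adjusted p = 0.16), −1.09 ± 0.38 in Rrm1 1415878_at (adjusted p = 0.22) and −1.47 ± 0.50 in Tyms 1438690_at (adjusted p = 0.21). The first was the 1 higher and the others the 2 lower at an unadjusted p under 0.05, where the shares of all were 9.71% and 12.4%, and again 0 were called, against 1.26% of all.

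Averaging the probe sets of each gene first gave no call among the 5 genes, with p-values adjusted over 12394 genes. Rrm1 differed from control by 1.80 ± 0.36 in pRb-null (adjusted p = 0.40), by 1.19 ± 0.36 in p53-null (adjusted p = 0.31) and by 0.26 ± 0.36 in double-null skin (adjusted p = 0.75). Rrm2 differed by 1.51 ± 0.63 in pRb-null (adjusted p = 0.60), 0.84 ± 0.63 in p53-null (adjusted p = 0.61) and 1.84 ± 0.63 in double-null skin (adjusted p = 0.26). Tyms differed by 0.05 ± 0.36, −0.80 ± 0.36 and −0.73 ± 0.36 in the same order, with adjusted p from 0.39 to 0.98.

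The other genes of deoxynucleotide supply were described as a list of enzymes, transporters and folate genes. Of 21 genes listed, 17 were measured by a probe set with 1 symbol, and 0 passed in any comparison with control. At an unadjusted p under 0.05, 1 was higher and 0 lower in pRb-null, 1 and 1 in p53-null, and 2 and 1 in double-null skin. The shares of all probe sets were 6.44% and 4.21%, 7.38% and 7.23%, and 8.77% and 9.91% in the same order, so these counts lie near the background. The medians were 0.56, 0.26 and 0.38. Dck, the deoxycytidine kinase of the salvage pathway, differed from control by 2.07 ± 0.67 in pRb-null (adjusted p = 0.43), 1.79 ± 0.67 in p53-null (adjusted p = 0.35) and 1.62 ± 0.67 in double-null skin (adjusted p = 0.31). Samhd1, which breaks down deoxynucleotides, scored 1.74 and 1.07 in double-null against −1.03 and −0.36 in control skin, a difference of 2.10 ± 0.52 (adjusted p = 0.17). The nucleoside transporter Slc29a1 differed by 2.06 ± 0.45 in p53-null skin (adjusted p = 0.20), and Shmt1, a serine hydroxymethyltransferase that feeds thymidylate synthesis, by −1.46 ± 0.32 in p53-null (adjusted p = 0.20) and −1.57 ± 0.32 in double-null skin (adjusted p = 0.13). Rrm2b, the alternative small subunit of ribonucleotide reductase and a known p53 target, named here outside the rule, differed by 0.56 ± 0.94 in pRb-null, 0.87 ± 0.94 in p53-null and −0.86 ± 0.94 in double-null skin, with adjusted p from 0.67 to 0.88.

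Purine genes had medians above control and pyrimidine genes medians below it in each mutant genotype. The 14 measured purine genes had medians of 0.69 in pRb-null, 1.12 in p53-null and 0.75 in double-null skin relative to control, with positive differences in 12, 14 and 12, against 52.3%, 45.7% and 49.9% of all probe sets. At an unadjusted p under 0.05, 1 was higher and 0 lower in each. The shares of all probe sets were 6.44%, 7.38% and 8.77% higher and 4.21%, 7.23% and 9.91% lower, so these counts lie near the background. The 8 measured pyrimidine genes had medians of −0.59, −0.52 and −1.45 in the same order, with positive differences in 2, 3 and 2. By an unadjusted p under 0.05 they counted 0, 0 and 1 higher and 1, 2 and 3 lower, against the same shares of all probe sets. Ctps, a CTP synthase, differed by −2.44 ± 0.39 in double-null skin (adjusted p = 0.096), Cad, which starts pyrimidine synthesis, by −2.27 ± 0.62 (adjusted p = 0.19), and the uridine kinase Uck1 by 2.43 ± 0.35 (adjusted p = 0.086). No gene of either list passed. The 64 quality-control probe sets had medians of 0.87, 0.87 and 0.71 against the same control arrays.

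Genes of replication and E2F activity also had their highest array means in pRb-null skin. Of the 23 measured, 22 had a positive difference in pRb-null, 14 in p53-null and 17 in double-null skin, against 52.3%, 45.7% and 49.9% of all probe sets, with medians of 1.16, 0.59 and 0.65, and 0 passed in any of these comparisons. At an unadjusted p under 0.05, 6, 3 and 6 were higher and 0, 1 and 1 lower, where 6.44%, 7.38% and 8.77% of all probe sets were higher and 4.21%, 7.23% and 9.91% lower. The helicase subunit Mcm6 scored 0.54 and 0.35 in pRb-null, 0.54 and −0.16 in p53-null, 0.80 and 0.98 in double-null, and −1.41 and −1.64 in control skin, and its double-null difference was 2.41 ± 0.27 (adjusted p = 0.064). Genes of proliferation and mitosis had medians of 0.84, 0.59 and −0.29 over 18 members, and 0 passed. Of these, 15, 13 and 9 had a positive difference, against the same 52.3%, 45.7% and 49.9% of all probe sets. By an unadjusted p under 0.05, 2, 3 and 1 were higher and 1, 0 and 5 lower. The shares of all were again 6.44%, 7.38% and 8.77% higher and 4.21%, 7.23% and 9.91% lower. The 5 lower in double-null skin were Mki67, Plk1, Bub1b, Birc5 and Ccna2, and the 1 higher was Kif20a. The proliferation marker Mki67 differed by −2.14 ± 0.25 in double-null skin (adjusted p = 0.066), and the mitotic kinesin Kif20a by 1.69 ± 0.28 (adjusted p = 0.10).

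Averaged over the 5 nucleotide synthesis genes, the score was 0.81 and 0.34 in pRb-null, 0.27 and 0.05 in p53-null, −0.09 and −0.48 in double-null, and −0.62 and −0.29 in control arrays. By this mean the pRb-null arrays were the highest, and the double-null and control arrays overlapped. The median of the 11 probe sets was 0.84 and 0.31 in pRb-null, −0.11 and 0.04 in p53-null, 0.33 and −0.26 in double-null, and −0.56 and −0.41 in control arrays. By the median, double-null and pRb-null arrays overlapped and both double-null arrays lay above control, so these orders depend on the summary. Over the 8 arrays, the median r with this mean was 0.46 for the replication and E2F genes 0.38 for the proliferation and mitosis genes, 0.37 for the purine genes, 0.15 for the other deoxynucleotide genes and −0.05 for the pyrimidine genes, against 0.04 for the 20382 other probe sets with 1 symbol. The 8 probe sets with the highest r were those of Brap (0.979), Skp2 (0.976), Srsf2 (0.975), Mbd2 (0.975), Ddx46 (0.971), Sppl2a (0.968), Nrarp (0.967) and Keap1 (0.964). Such values are the top of many probe sets over 8 arrays and carry no test. Markers of other cells also differed by array. The 8 skeletal muscle markers averaged 1.04 and 1.19 in pRb-null against −0.77 and −0.43 in control arrays, and 0 passed. By an unadjusted p under 0.05, 6 of them were higher in pRb-null skin, where 6.44% of all probe sets were. The 11 hair follicle markers averaged −0.16 and −0.11 in p53-null and −1.50 and −1.01 in double-null against 0.73 and 0.83 in control arrays. Of the 11, 9 were lower in p53-null and 10 in double-null skin by an unadjusted p under 0.05, against 7.23% and 9.91% of all probe sets. In double-null skin 7 passed, where 0.846% of all probe sets were called. The 7 basal keratinocyte markers averaged −0.59 and −0.75 in double-null against −0.09 and 0.69 in control arrays, though 3 of the 7 had a positive difference. By an unadjusted p under 0.05, 0 were higher and 3 lower in double-null skin, where the shares of all were 8.77% and 9.91%. The 8 macrophage markers averaged 1.19 and 0.88 in double-null against −0.75 and −0.21 in control arrays. The 5 adipocyte markers averaged 0.59 and 0.65 in pRb-null, −1.33 and −1.42 in p53-null and 1.04 and 0.75 in double-null against −0.09 and −0.18 in control arrays. All 5 had a positive difference in pRb-null skin, 3 of them at an unadjusted p under 0.05, where the shares of all were 52.3% and 6.44%. By the same p, all 5 were lower in p53-null skin and 4 were higher in double-null skin. The shares of all were 7.23% and 8.77%, and 0 of the 5 passed in these comparisons. The part of these markers in the scores of the nucleotide synthesis genes was not tested.

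**Figure D4:**
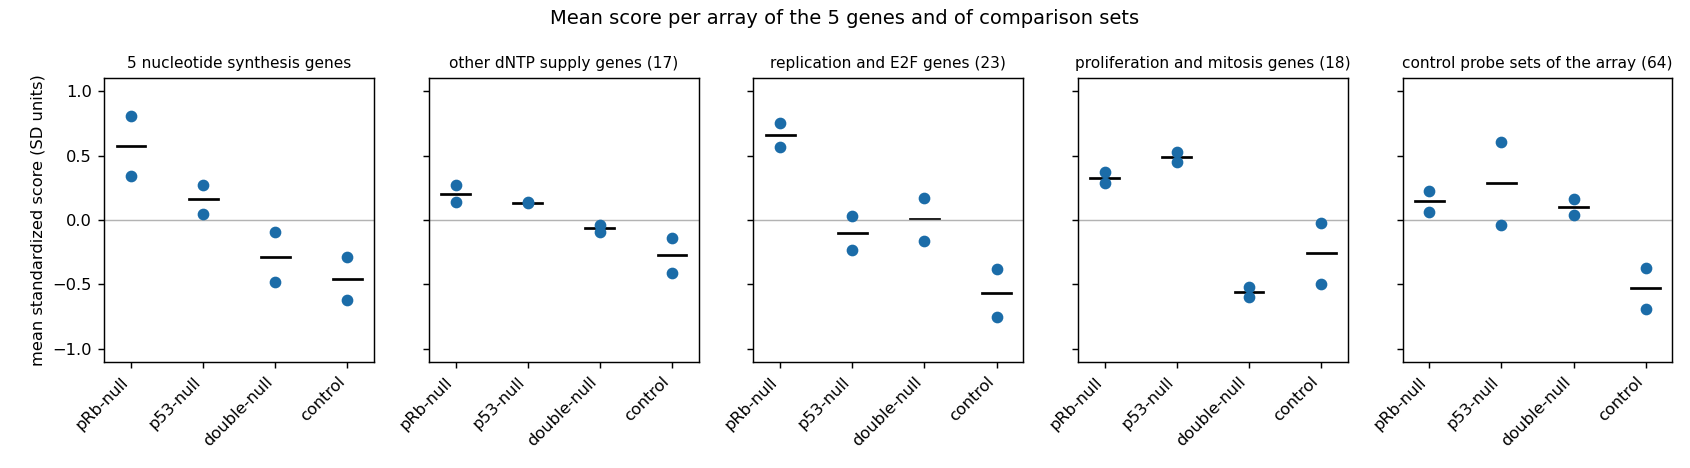
Mean standardized score per array (vertical axis, SD units) of the 5 nucleotide synthesis genes and of 4 comparison sets, by genotype, with 1 point per array and a bar at the mean of the 2 arrays. The 5 genes and the replication and E2F genes are highest in pRb-null arrays, the proliferation and mitosis genes are lowest in double-null arrays, and the 64 quality-control probe sets (titled control probe sets) are lowest in control arrays.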

How the data were processed

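RNA of whole skin was hybridised to 8 one-colour arrays. The deposited value is a standardized score per probe set, for which the submitters' processing notes name RMA, with no version. Tested on the file, all 22690 rows have mean 0 and SD 1 within 1e-06, and scores lie between −2.43 and 2.45. Any log step before scaling is not stated. Symbols came from the platform annotation, where 20393 probe sets had 1 symbol, 691 several and 1606 none. All 11 probe sets of the 5 genes matched RefSeq.

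Groups came from sample titles. limma 3.58.1 (R 4.3.3) was fitted on all probe sets and 8 arrays with a group-means design, which leaves 4 residual degrees of freedom, two-sided, with Benjamini-Hochberg adjustment over all probe sets. The main statistic has no variance moderation, because standardization ties the variances of the rows together. The test was also run on simulated independent noise with known shifts in the double-null group, read only against control. This simulation does not cover the other comparisons or correlated probe sets, and its outcome is not given here. In lists, 1 probe set per gene was used (_at before _a_at, _s_at and _x_at, then lowest identifier), and named genes are the members, up to 4 of the smallest p per list and comparison with control, and the 8 most like the members' mean. Members, lists and tests were chosen with earlier results of these data known. Alternatives were the moderated statistic, quantile normalization, array medians set to 0, a replicate block, only the groups compared, 1 probe set per gene, averaging all probe sets within a gene and leaving out each array. The crossed replicate block was added after seeing the data. Plots used Python 3.11.15, pandas 2.3.3 and matplotlib 3.10.9.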

Additional observations from a re-analysis of the deposited data

How the results depend on the processing

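No probe set of the 11 passed in any of the 8 comparisons under any alternative that kept both arrays of the groups compared. The moderated statistic, the replicate block and the fits of only the groups compared called 0 of all 22690 probe sets. The block leaves 3 residual degrees of freedom and the fits of only the groups compared 2. The 0 of 11 under these settings is therefore no result about these genes. Of 44 single differences, recomputed 590 times in all, 571 kept their direction and 19 did not. The 16 with an unadjusted p under 0.05 kept their direction throughout, with a lowest adjusted p of 0.096 under any alternative. Many of the 590 recomputations could not change a difference. The moderated statistic, the replicate block and leaving out an array of a group not compared keep it as it was. The 16 were picked by their p in the same arrays, so their kept direction is not separate support. The medians depend on which probe sets stand for a gene. With 1 probe set per gene they were 0.387 for p53-null and −0.343 for double-null against control, 0.122 for pRb loss and −0.298 for p53 loss averaged, and 0.201 for the interaction. With all probe sets averaged within each gene they were 0.026 for double-null against control, −0.488 for double-null against p53-null, 0.061 for pRb loss and −0.172 for p53 loss averaged. The cause was not tested. With 1 array left out, the lone array of its group being taken to vary like the others, the median against control ran from 0.713 to 1.282 in pRb-null, 0.478 to 1.047 in p53-null and −0.012 to 1.089 in double-null skin. It ran from −0.933 to −0.425 for double-null against pRb-null, −0.293 to 0.415 for double-null against p53-null, 0.146 to 0.745 for pRb loss, −0.167 to 0.600 for p53 loss and −1.317 to −0.423 for the interaction.

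Single differences from control that turned with 1 array left out belonged mainly to Tyms and Dut. In pRb-null skin they were Tyms 1427810_at (−0.836 to 0.876), 1427811_at (−0.742 to 0.049) and 1438690_at (−0.372 to 1.302) and Dut 1419269_at (−0.643 to 1.089). In p53-null skin they were Rrm1 1415878_at (−0.154 to 0.593), Rrm2 1434437_x_at (−0.255 to 1.777) and Tyms 1427810_at (−0.926 to 1.699), and in double-null skin Tyms 1427810_at (−0.245 to 1.467), Dut 1419269_at (−1.523 to 0.838) and Dut 1419270_a_at (−0.298 to 1.089). Tyms 1427810_at in pRb-null skin was also at −0.264 after quantile normalization and −0.098 with array medians at 0.

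The sample titles do not say whether the replicate numbers pair the arrays. Between genotypes the r of deviations from the group means ran from −0.163 (pRb-null with double-null) to 0.197 (p53-null with double-null). With the replicate block the count of called probe sets among all 22690 was 0 for double-null against control, where it was 192 without the block and 1 after quantile normalization, and 27 became 0 for p53-null against control under both. With crossed numbers as a block, 0 probe sets were called for double-null against pRb-null, as with the labels' numbers in the same 4 arrays. Each of these fits leaves 1 residual degree of freedom, so their counts cannot tell whether the numbers pair the arrays. The moderated statistic called 0 of all probe sets in each comparison, and leaving out 1 array left 1 to 8 calls for double-null against control.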

Other observations

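In Tyms 1427810_at the array numbered replicate 1 scored above replicate 2 in all 4 genotypes, and the same held for Rrm1 1448127_at, with smaller gaps. These are 2 of the 11 probe sets, against 4.90% of all probe sets, and the opposite order in all 4 genotypes was seen in 0 of the 11 and in 5.74% of all. With the replicate block the differences of Tyms 1427810_at from control were 0.02 ± 0.46 in pRb-null, 0.39 ± 0.46 in p53-null and 0.61 ± 0.46 in double-null skin, with adjusted p of 0.99, 0.77 and 0.58.

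Dtymk, the thymidylate kinase that takes up the product of both Tyms and Tk1, scored −0.70 and −1.48 in pRb-null, 0.41 and 1.57 in p53-null, 0.74 and 0.38 in double-null, and −0.99 and 0.07 in control skin. Its difference from control was −0.63 ± 0.64 in pRb-null (adjusted p = 0.78), 1.45 ± 0.64 in p53-null (adjusted p = 0.40) and 1.02 ± 0.64 in double-null skin (adjusted p = 0.46).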
